A study of Mus musculus with 30 samples.

Results

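Myostatin, its antagonist follistatin, the activin receptors and the Smad proteins below them were followed at the RNA level in mouse muscle after spinal cord transection. The 8 genes were Mstn, Fst, Fstl1, Acvr2a, Acvr2b, Acvr1b, Smad3 and Smad7, taken by symbol from the 11249 genes of the deposited mRNA table, and all 8 were in it. The table covers 30 libraries of polyadenylated RNA from male mice, made with a strand-keeping kit and sequenced from both ends on a NovaSeq. Tissue was taken 3 days after sham surgery, a high thoracic transection (T3) or a low thoracic transection (T9). The gastrocnemius, a calf muscle, has 4 libraries per surgery, and the triceps brachii, a muscle of the fore limb, has 6. The labels give no strain, age or drug, and they call the samples of a group replicates. The number in each sample's description pairs 12 mice across the muscles, which is an inference. Adjusted p-values below are from limma with Benjamini-Hochberg adjustment over the whole table, 0.05 was the threshold, and log2 changes are given ± SE.

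Myostatin is a secreted ligand of the TGF-beta superfamily that skeletal muscle makes and that limits muscle growth. It binds the type II activin receptors, which recruit a type I receptor that phosphorylates Smad2 and Smad3, and these enter the nucleus with Smad4. Follistatin binds activins and myostatin and keeps them from their receptors, while Smad7 is an inhibitory Smad that is itself induced by the pathway. The question the design puts to these genes is whether their RNA differs by lesion level and between a muscle of the hind limb and one of the fore limb.

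The promoters of 4 of these genes are shown because their RNA moved with surgery in different ways: Mstn and Acvr2a rose after T9, Smad3 rose most after T9, and Acvr1b rose after T3. The RefSeq promoter table (GRCm38.p6) matched 6 of the 8 genes. Each sequence is the 240 bases from 250 to 11 bases before the start site, read 5′ to 3′ on the gene's strand. Capitals mark matches, on either strand, to 5 short motifs. They are the Smad core CAGAC, the E-box CANNTG, the sequence TATAAA, which was added after the promoters were seen, the glucocorticoid receptor motif AGAACA and the FoxO motif TGTTTAC.
Mstn, chr1:53061390-53061629, forward strand: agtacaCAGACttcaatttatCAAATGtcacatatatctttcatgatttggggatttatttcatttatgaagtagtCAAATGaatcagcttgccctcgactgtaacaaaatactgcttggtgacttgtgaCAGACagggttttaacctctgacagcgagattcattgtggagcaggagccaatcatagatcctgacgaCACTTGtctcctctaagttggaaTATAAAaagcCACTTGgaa
Acvr2a, chr2:48813859-48814098, forward strand: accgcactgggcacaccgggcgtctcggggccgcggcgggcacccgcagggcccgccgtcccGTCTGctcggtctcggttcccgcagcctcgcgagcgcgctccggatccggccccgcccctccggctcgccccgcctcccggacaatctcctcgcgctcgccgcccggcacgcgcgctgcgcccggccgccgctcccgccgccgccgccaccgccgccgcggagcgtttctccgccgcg
Acvr1b, chr15:101173822-101174061, forward strand: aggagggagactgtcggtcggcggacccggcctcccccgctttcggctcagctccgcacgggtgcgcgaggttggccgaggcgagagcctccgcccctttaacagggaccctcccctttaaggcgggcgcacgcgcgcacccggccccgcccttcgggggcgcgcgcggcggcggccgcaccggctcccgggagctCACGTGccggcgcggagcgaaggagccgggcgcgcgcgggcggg
Smad3, chr9:63758005-63758244, reverse strand: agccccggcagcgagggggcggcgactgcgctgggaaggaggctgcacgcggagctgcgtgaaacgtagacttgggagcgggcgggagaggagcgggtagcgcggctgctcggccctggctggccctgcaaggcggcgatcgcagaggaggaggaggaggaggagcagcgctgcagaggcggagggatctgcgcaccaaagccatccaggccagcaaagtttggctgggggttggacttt
The Mstn window held 2 CAGAC matches, 4 CANNTG matches and 1 TATAAA match that began 29 bases before the start. The other 3 windows held 1 CAGAC match on the opposite strand (Acvr2a), 1 CANNTG match (Acvr1b) and no match (Smad3). No motif matches overlapped. Over all 32851 windows of the same length, CAGAC was found in 40.9%, AGAACA in 15.5%, TGTTTAC in 3.06%, CANNTG in 65% and TATAAA in 12.1%. The Mstn window was also the most AT-rich of the 4, with 38.8% G and C. Acvr2a had 82.5%, Acvr1b 78.8% and Smad3 69.2%, beside a median of 52.1% over all windows.

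Library totals ran from 13293557 to 23398801 reads, apart from triceps T3 replicate 5 at 88826845. The 8 genes differed in the reads behind them, from 12 to 210 reads per library for Fst to 309 to 5779 for Smad3, and counting error is widest for Fst. Each library was scaled to its own total, and the median gene was itself shifted by surgery. In the gastrocnemius it was 0.27 higher on the log2 scale after T3 and 0.40 higher after T9, and in the triceps 0.23 and 0.17 higher. With each library centred on its median, the genes that passed split into 1641 higher and 1627 lower after T3 in the gastrocnemius, against 3046 and 748 without centring. After T9 the split was 1247 and 1397, against 4226 and 638, and after T3 in the triceps 1140 and 894, against 2138 and 486. The marker genes of muscle fibres summed to between 67500 and 147000 CPM (reads per 1e+06 reads) in every library, so all 30 libraries carry muscle fibre RNA as labelled. In bulk muscle, fewer cells of a type and less RNA per cell cannot be told apart.

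After T3, 4 of the 8 genes rose in the gastrocnemius (Fst, Acvr1b, Smad3 and Smad7) and Fstl1 fell, in a comparison where 33.7% of all genes passed. After T9, Mstn, Fst, Acvr2a and Smad3 rose and Fstl1 fell, where 43.2% of all genes passed. Each of these counts is 5 of 8 and is to be read against those backgrounds. The 8 genes had a median log2 change of 0.64 after T3 and 0.90 after T9, beside 0.27 and 0.40 for all genes. The gastrocnemius comparison of T3 with T9 was more selective, since 1.63% of all genes passed, and Acvr2a and Smad3 were both lower after T3. In the triceps, Acvr1b and Smad7 rose and Fstl1 fell after T3, where 23.3% of all genes passed. None of the 8 passed after T9 in the triceps, where 1 gene of 11249 did (0.00889%) and 1185 had an unadjusted p under 0.05, Acvr2a being the 1 member among them. None passed between T3 and T9 in the triceps either, where 7.6% of all genes did and 1 of the 8, Acvr1b, had an unadjusted p under 0.05. Both injuries were set against the same sham libraries, so their changes share that baseline.

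**Figure D1:**
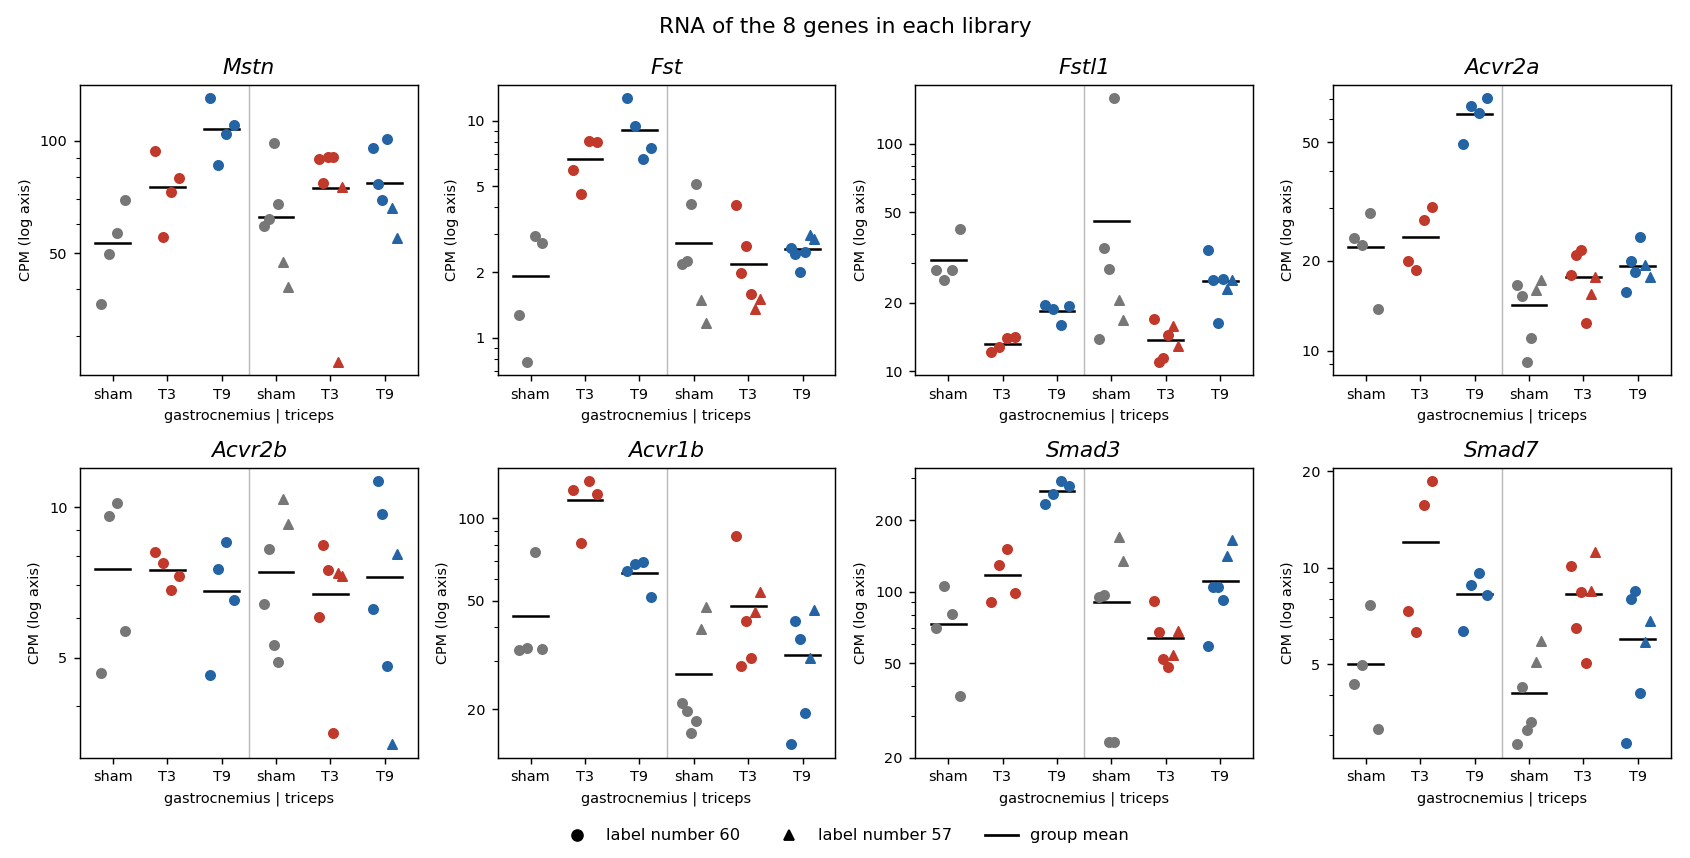
RNA level of each gene (CPM, log axis) in all 30 libraries, by muscle and surgery, with a bar for the group mean. Circles and triangles give the number 60 or 57 that opens the sample description. Fst, Acvr2a and Smad3 stand highest in gastrocnemius T9, Acvr1b in gastrocnemius T3, and 1 triceps sham library reaches 159 CPM of Fstl1.

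**Figure D2:**
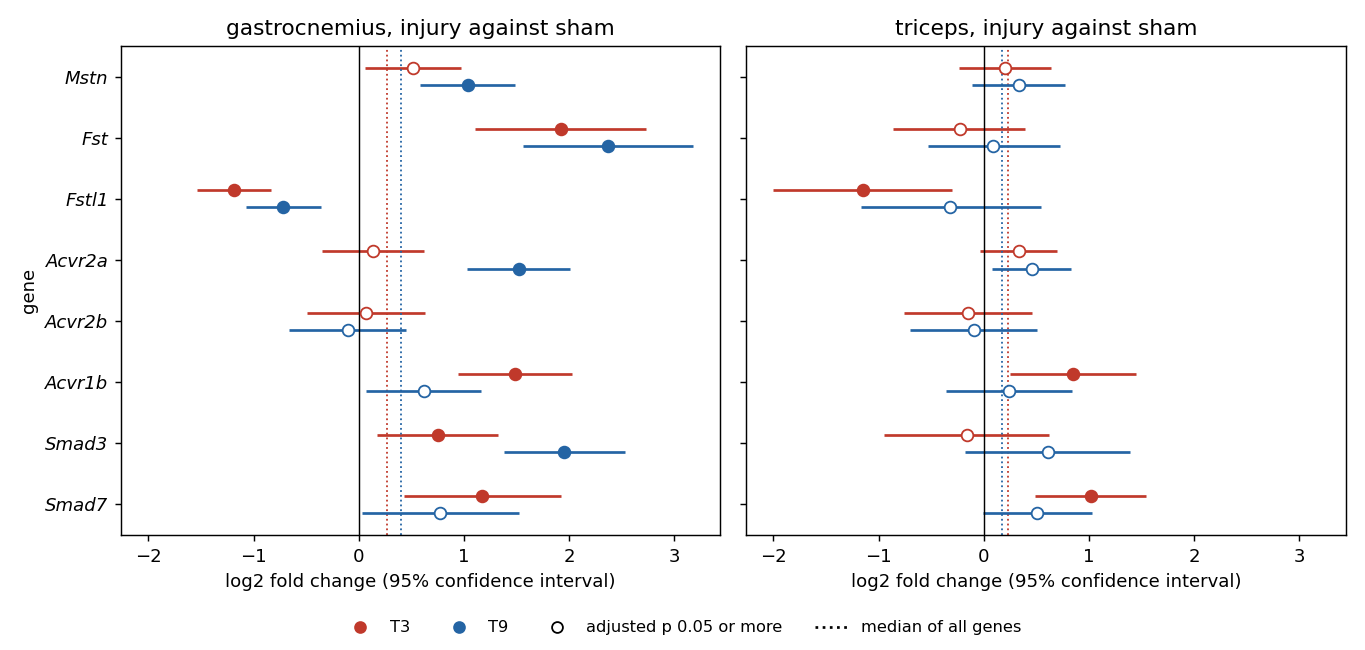
Log2 change of each gene against sham with its 95% confidence interval, gastrocnemius at left and triceps at right, T3 in red and T9 in blue. Filled points passed the limma threshold, and dotted lines mark the median of all genes. The gastrocnemius has 5 filled points for each injury, and the triceps has 3 for T3 and none for T9.

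Mstn (chromosome 1, 53061640 to 53068079, forward strand, GRCm38), the ligand, was higher in the gastrocnemius after T9. Its 4 sham libraries held 36.6, 49.9, 56.7 and 69.2 CPM, the T3 libraries 94.1, 55.2, 72.7 and 79.3, and the T9 libraries 130, 85.9, 104 and 110. Every T9 library lay above every sham library, and 3 of 4 T3 libraries did. T9 and sham libraries did not overlap for 39.6% of all genes. The rise after T9 was 1.04 ± 0.21 (2.05-fold, adjusted p = 0.0025), which is 0.64 above the shift of the median gene. With each library centred on its median it was 0.64 and did not pass (adjusted p = 0.068). After T3 the difference was 0.52 ± 0.21 (adjusted p = 0.071), and it passed without sham replicate 4 (0.66, adjusted p = 0.0211) or without T3 replicate 2 (0.66, adjusted p = 0.0375).

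In the triceps, Mstn was 59.3, 61.6, 98.5, 67.9, 47.5 and 40.7 CPM in the sham libraries. It ran from 25.6 to 90.7 after T3 (median 83.2) and from 54.9 to 101 after T9 (median 73). The groups overlapped, and the differences of 0.20 after T3 (95% interval -0.24 to 0.64) and 0.33 after T9 (-0.11 to 0.77) did not pass. The lowest value, 25.6 CPM, came from T3 replicate 5, the library read most deeply. Triceps libraries with the number 57 in their description lay below those with 60 in each group, at 40.7 to 47.5 against 59.3 to 98.5 in sham. Mstn was strongly expressed for its length in both muscles. Its level per kilobase of exon lay between the 83.9th and 90.5th percentile of all genes in the 6 groups.

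Fst (chromosome 13, 114452290 to 114458951, reverse strand) had the largest rise of the 8 genes in the gastrocnemius after either injury, and no rise that passed in the triceps. Sham gastrocnemius libraries held 1.27, 0.775, 2.95 and 2.74 CPM. The T3 libraries held 5.91, 4.61, 8.04 and 7.95, and the T9 libraries 12.7, 9.45, 6.65 and 7.52. All 8 injured libraries lay above all 4 sham libraries, and T3 and T9 overlapped. Of all genes, 29.7% did not overlap between T3 and sham, and 39.6% between T9 and sham. The rise was 1.92 ± 0.38 after T3 (3.79-fold, adjusted p = 0.0021) and 2.37 ± 0.38 after T9 (5.16-fold, adjusted p = 0.00057). T3 and T9 differed by -0.45, with a 95% interval from -1.26 to 0.36 (adjusted p = 0.64).

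Triceps Fst ran from 1.17 to 5.12 CPM in sham (median 2.23), from 1.36 to 4.07 after T3 (median 1.79) and from 2.01 to 2.99 after T9 (median 2.55). The 3 groups overlapped, with changes of -0.23 after T3 (95% interval -0.86 to 0.39) and 0.09 after T9 (-0.53 to 0.72). Both intervals end below the gastrocnemius rises of 1.92 and 2.37, and the difference between the muscles was tested directly, as described with the paired muscles. Fst remained a low RNA even where it rose: per kilobase it moved from the 4th percentile of all genes in sham gastrocnemius to the 26.5th after T9. Satellite cells, the stem cells of muscle, were followed beside it by Myf5 and Cdh15, while Pax7 and Calcr were not analysed here. Their summed level was 16.7 to 30.8 CPM in sham gastrocnemius, 56.3 to 63.5 after T3 and 59.9 to 92.9 after T9. In the triceps it was 14.2 to 32.6, 23.7 to 49.2 and 13.7 to 29. Cdh15 rose by 1.35 ± 0.20 and 1.60 ± 0.20 in the gastrocnemius (adjusted p = 0.00032 and 0.00013) and by 0.95 ± 0.23 in the triceps after T3 (adjusted p = 0.0068). Myf5 rose by 1.27 ± 0.27 in the gastrocnemius after T9 (adjusted p = 0.0031). It did not pass after T3 in either muscle. In the triceps after T3 it went the other way from Cdh15, and the median change of the 2 markers was 0.21. Neither marker passed in the triceps after T9. The part of these cells in the Fst result was not tested.

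Fstl1 (chromosome 16, 37776873 to 37836514, forward strand), a secreted glycoprotein that shares a follistatin-like domain and is made by mesenchymal cells, went the other way. Gastrocnemius sham libraries held 27.8, 25.3, 27.8 and 42.4 CPM. After T3 they held 12.1, 12.8, 14 and 14.1, and after T9 19.5, 18.8, 16 and 19.4. The 3 groups did not overlap: T3 was lowest, T9 between, and sham highest. Fstl1 fell by 1.19 ± 0.17 after T3 (0.439 of sham, adjusted p = 0.00021) and by 0.72 ± 0.17 after T9 (0.609 of sham, adjusted p = 0.0053). With the library median as a covariate the T9 change was -0.33 and did not pass (adjusted p = 0.412). Groups that do not overlap were seen for 29.7% of all genes between T3 and sham, 39.6% between T9 and sham, and 18.2% between T3 and T9. The difference of -0.47 ± 0.17 between T3 and T9 did not pass (adjusted p = 0.19). It passed without sham replicate 4 (adjusted p = 0.037), with the library median as a covariate (0.0487) and in a fit of those 2 groups alone (0.0281).

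In the triceps, Fstl1 ran from 13.9 to 159 CPM in sham (median 24.4), from 11 to 17 after T3 (median 13.6) and from 16.3 to 34.1 after T9 (median 25.1). It fell by 1.15 ± 0.41 after T3 (adjusted p = 0.048), a value that sat at the threshold. The 159 CPM came from sham replicate 4. Without that library the fall was 0.68 ± 0.23 (adjusted p = 0.0455), and T3 then also differed from T9 (-0.83, adjusted p = 0.0219). The fall after T3 passed in 4 of 18 fits that each left out 1 library. It was lost without sham replicate 2, 3 or 5, without any 1 of the 6 T3 libraries, and without T9 replicate 1, 2, 4, 5 or 6, with adjusted p-values of up to 0.103. With the 4 lowest-median libraries left out the change was -0.57 (adjusted p = 0.0978), and of the 13 other settings it passed in 5. Libraries numbered 60 gave -1.53 ± 0.54 (adjusted p = 0.0773), and those numbered 57 gave -0.38 ± 0.21 (adjusted p = 0.336).

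Of 7 fibroblast markers, 3 fell after T3 in each muscle, beside Fstl1, and the other 4 did not pass. Dcn, 1 of those 4, went the other way in the gastrocnemius. Over 10 alternative settings its change was 0.231 to 0.877 after T3 and 0.159 to 1.094 after T9. It passed in 1 of the 10 after each injury. In the triceps after T3 it ran from -0.276 to 0.484 over 13 settings. Col3a1, a fibrillar collagen, fell by 1.49 ± 0.21 in the gastrocnemius and by 1.95 ± 0.53 in the triceps (adjusted p = 0.00023 and 0.014). After T9, 1 of 7 fell in the gastrocnemius and none passed in the triceps. None of the 7 was at 0. Their summed level was 282 to 422 CPM in sham gastrocnemius, 269 to 361 after T3 and 293 to 397 after T9. The sum therefore overlapped between the 3 groups where Fstl1 did not, and its median was 324 CPM in sham and 358 after T9. In the triceps it was 194 to 1040, 141 to 336 and 238 to 381, and the 1040 was again sham replicate 4, where 7 macrophage markers also summed to 954 CPM against 17.7 to 41.4 in the other 5 sham libraries. Over the 30 libraries Fstl1 and the fibroblast sum had a Pearson r of 0.77, or 0.54 without that library. Both are shares of the same library totals, and the part of fibroblasts in the Fstl1 result was not tested.

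**Figure D3:**
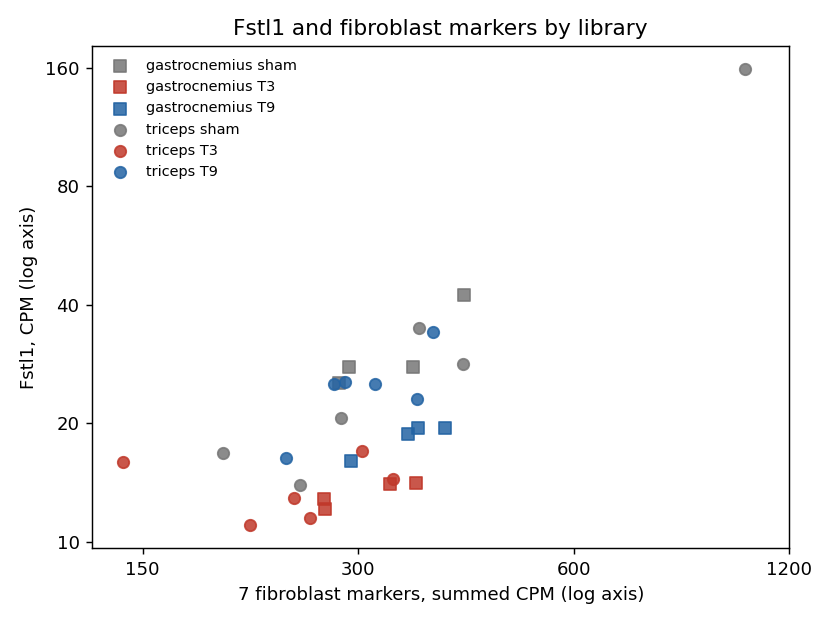
Fstl1 (CPM) against the summed CPM of 7 fibroblast markers, both on log axes, with 1 point per library, squares for gastrocnemius and circles for triceps. The triceps sham library at 1040 and 159 CPM stands apart at the upper right, and the T3 libraries lie between 11 and 17 CPM of Fstl1.

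Acvr2a (chromosome 2, 48814109 to 48903269, forward strand), a type II receptor for activins and myostatin, rose in the gastrocnemius after T9 and not detectably after T3. Its sham libraries held 23.8, 22.6, 28.9 and 13.8 CPM, the T3 libraries 20, 18.7, 27.5 and 30.4, and the T9 libraries 49.5, 66.3, 62.9 and 70.4. Every T9 library was above every sham and T3 library. Of all genes, 39.6% did not overlap between T9 and sham, and 18.2% between T3 and T9. The rise after T9 was 1.52 ± 0.23 (2.87-fold, adjusted p = 0.00038), beside 0.14 after T3 (95% interval -0.35 to 0.62, adjusted p = 0.66). With the library median as a covariate the T9 change was 0.55 and did not pass (adjusted p = 0.177). T3 was lower than T9 by 1.38 ± 0.23 (adjusted p = 0.016). That call was lost without T3 replicate 1 or 2 or T9 replicate 3 or 4, with adjusted p-values of up to 0.0707, at similar sizes of -1.37 to -1.27. Acvr2a shares its locus with Orc4 on the opposite strand, and whether reads were counted by strand is not stated. In the triceps it ran from 9.16 to 17.2 CPM in sham, 12.4 to 21.8 after T3 and 15.7 to 24.1 after T9. Of the T9 libraries 5 of 6 lay above all sham libraries, but the difference of 0.46 ± 0.18 did not pass (adjusted p = 0.41).

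Acvr2b (chromosome 9, 119402118 to 119434995, forward strand), the other type II receptor of the pair, passed in none of the comparisons. In the gastrocnemius its libraries held 4.66, 9.62, 10.2 and 5.64 CPM in sham, 8.15, 7.73, 6.83 and 7.29 after T3, and 4.61, 7.53, 8.53 and 6.53 after T9. The injured libraries lay within or close to the sham range. Its change was 0.07 after T3 (95% interval -0.49 to 0.63) and -0.10 after T9 (-0.66 to 0.45), so a rise the size of that of Acvr2a after T9 lies outside the interval. In the triceps its group medians were 7.32, 7.34 and 7.15 CPM for sham, T3 and T9. The antisense gene Gm47320 overlaps it.

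Acvr1b (chromosome 15, 101174067 to 101213684, forward strand), a type I receptor that activins and myostatin use and that phosphorylates the Smads, was highest after T3. Sham gastrocnemius held 33.1, 33.6, 75.5 and 33.3 CPM, T3 held 127, 81, 137 and 122, and T9 held 63.9, 67.9, 69.4 and 51.5. The T3 libraries lay above all others, while sham replicate 3 at 75.5 CPM lay above every T9 library. Of all genes, 29.7% did not overlap between T3 and sham, and 18.2% between T3 and T9. The rise after T3 was 1.49 ± 0.25 (2.8-fold, adjusted p = 0.00087). After T9 the difference was 0.62 ± 0.25 (adjusted p = 0.063), and without sham replicate 3 it was 0.91 and passed (adjusted p = 0.00224), as did T3 against T9 (0.87, adjusted p = 0.0267, against 0.11 with it). T3 against T9 also passed with median centring (0.99, adjusted p = 0.0443). With the replicate number as a block, the T9 difference of 0.62 also passed (adjusted p = 0.0414). With median centring it was 0.22 (adjusted p = 0.509), and with the library median as a covariate it turned to -0.045 (adjusted p = 0.953).

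Triceps Acvr1b ran from 16.4 to 47.3 CPM in sham (median 20.5), 28.9 to 86 after T3 (median 43.8) and 14.9 to 46.3 after T9 (median 33.6). It rose by 0.85 ± 0.29 after T3 (adjusted p = 0.04). The 2 T3 libraries at 86 and 53.6 CPM lay above all sham libraries. The call held in 11 of 18 fits that each left out 1 library and was lost without sham replicate 1, 2, 3 or 4 or T3 replicate 1, 3 or 6 (adjusted p up to 0.0947). It was also lost with the replicate number as a block (adjusted p = 0.0593) and without the label number as a term (0.0919). Median centring gave 0.61 (adjusted p = 0.0866), quantile normalization 0.58 (0.126) and the library median as a covariate 0.39 (0.289). Within the libraries numbered 60 the difference was 1.17 ± 0.37 (adjusted p = 0.0553), and within those numbered 57 it was 0.19 ± 0.24 (adjusted p = 0.691). Sham libraries with these numbers stood apart, at 16.4 to 21.2 and 39.4 to 47.3 CPM.

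Smad3 (chromosome 9, 63646767 to 63757994, reverse strand), which carries the signal of these receptors to the nucleus, had its highest values in the gastrocnemius after T9. Sham libraries held 70.3, 106, 80.5 and 36.3 CPM, T3 libraries 90.6, 129, 151 and 98.3, and T9 libraries 233, 257, 293 and 279. The T9 libraries lay far above both other groups, which overlapped each other. Of all genes, 39.6% did not overlap between T9 and sham, and 18.2% between T3 and T9. Smad3 rose by 1.95 ± 0.27 after T9 (3.87-fold, adjusted p = 0.00022). With the library median as a covariate it was 0.80 and did not pass (adjusted p = 0.113). T3 was lower than T9 by 1.21 ± 0.27 (adjusted p = 0.04), which passed in 4 of 12 fits that each left out 1 library. It was lost without sham replicate 1, T3 replicate 1, 2 or 4, or any 1 of the 4 T9 libraries (adjusted p up to 0.15), with sizes from -1.27 to -1.09.

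The smaller rise of Smad3 after T3, 0.75 ± 0.27 (adjusted p = 0.045), depended on single libraries and on scaling. It passed in 3 of 12 fits without 1 library. It was lost without sham replicate 1, without T3 replicate 2, 3 or 4 and without any 1 of the T9 libraries (adjusted p up to 0.128), and without sham replicate 4 it was 0.44 (adjusted p = 0.08). With median centring it was 0.47 (adjusted p = 0.124), and with the library median as a covariate it turned to -0.05. In the triceps Smad3 ran from 23.2 to 169 CPM in sham (median 95.4). The T3 libraries held 91, 67.4, 52.2, 48.1, 54.2 and 68, and the T9 libraries ran from 59.2 to 165 (median 105). The groups overlapped and neither difference from sham passed, at -0.16 ± 0.37 after T3 and 0.61 ± 0.37 after T9. Sham libraries numbered 57 held 135 and 169 CPM and those numbered 60 held 23.2 to 96.3. Within the number 57, which has 2 T3 and 2 sham libraries, T3 was lower than sham by 1.31 (adjusted p = 0.0131). T3 replicate 5, the library read most deeply, is among them. The 2 sham libraries at 23.2 CPM, replicates 3 and 4, are the 2 triceps libraries with the lowest medians.

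Smad7 (chromosome 18, 75367529 to 75395935, forward strand), which binds activated type I receptors and blocks them, was higher after T3 in both muscles. Gastrocnemius libraries held 4.33, 4.97, 7.67 and 3.14 CPM in sham, 7.33, 6.3, 15.7 and 18.7 after T3, and 6.37, 8.87, 9.64 and 8.2 after T9. Of the T3 libraries, replicates 3 and 4 lay above all sham libraries, and the rise of 1.17 ± 0.35 (adjusted p = 0.019) was lost without either of them (0.99, adjusted p = 0.0643, and 0.91, adjusted p = 0.0657) or without sham replicate 1 (1.13, adjusted p = 0.0513). It was also lost in a fit of T3 and sham alone (adjusted p = 0.0548), and with the library median as a covariate it was 0.18 (adjusted p = 0.749). After T9 the difference of 0.77 ± 0.35 did not pass (adjusted p = 0.084). It passed without sham replicate 3 (0.999, adjusted p = 0.0297) and in a fit of those 2 groups alone (adjusted p = 0.0498), and with the library median as a covariate it turned to -0.67 (adjusted p = 0.322). In the triceps Smad7 ran from 2.81 to 5.92 CPM in sham (median 3.78), from 5.03 to 11.2 after T3 (median 8.41) and from 2.84 to 8.49 after T9 (median 6.35). Of the T3 libraries 5 of 6 lay above every sham library. The rise there was 1.02 ± 0.25 (2.02-fold, adjusted p = 0.0072), and it passed in all 18 fits that left out 1 library. It was 1.11 ± 0.35 within the number 60 and 0.82 ± 0.25 within the number 57, and neither passed alone (adjusted p = 0.0538 and 0.0918).

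The difference between muscles was tested within the 12 mice that gave both, with the mouse as a block. In sham mice 38.9% of all genes passed, and 4 of the 8 did: Mstn (-0.44 ± 0.15) and Fst (-0.92 ± 0.26) were lower in the gastrocnemius, and Acvr2a (0.77 ± 0.22) and Acvr1b (1.12 ± 0.29) were higher, with adjusted p-values of 0.034, 0.021, 0.022 and 0.018. All 4 calls were lost without sham mouse 4, whose 2 libraries did not deviate together, with changes of -0.32, -1.06, 0.47 and 0.76. Those of Mstn and Fst were also lost without sham mouse 2 (-0.49 and -0.72), and that of Mstn without sham mouse 1 (-0.36). Without sham mouse 1, Fstl1 (-0.80) and Smad3 (0.86) passed in addition (adjusted p = 0.0465 and 0.0436). Without the block, none of the 8 passed.

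The T3 effect differed between the muscles for 1.24% of all genes, and Fst was the 1 of the 8 that passed. In the 4 sham mice Fst was lower in the gastrocnemius than in the triceps of the same mouse, by -1.51 to -0.49 on the log2 scale. In all 4 T3 mice it was higher in the gastrocnemius, by 0.53 to 2.32, and in all 4 T9 mice by 1.58 to 2.28. The sham mice thus did not overlap with the 8 injured mice, which held for 4.68% of all genes. The T3 effect was larger in the gastrocnemius by 2.32 ± 0.37 (adjusted p = 0.0078) and the T9 effect by 2.79 ± 0.37 (adjusted p = 0.00095), and both passed in all 12 fits that left out 1 mouse.

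The T9 effect differed between the muscles for 6.95% of all genes, and Mstn passed beside Fst. Mstn lay between -0.80 and 0.03 in the sham mice and between 0.12 and 0.58 in the T9 mice, with no overlap, as for 14.1% of all genes. Its T9 effect was larger in the gastrocnemius by 0.77 ± 0.21 (adjusted p = 0.044). This call held in 2 of 12 fits that left out 1 mouse and was lost without sham mouse 1, 2 or 4, T3 mouse 7, 8 or 10, or any 1 of the 4 T9 mice (adjusted p up to 0.137), with sizes from 0.65 to 0.84. Without the mouse block the adjusted p was 0.154, with median centring 0.23 and with quantile normalization 0.0792. Acvr2a (0.91 ± 0.31, adjusted p = 0.10) and Smad3 (1.05 ± 0.42, adjusted p = 0.17) did not pass. The gastrocnemius was higher in all 4 T9 mice, by 1.55 to 1.78 for Acvr2a and by 1.28 to 1.98 for Smad3. In the 4 sham mice the difference was 0.33 to 1.65 for Acvr2a and -0.43 to 1.79 for Smad3. Sham and T9 mice thus overlapped for both genes. Both passed without sham mouse 4 (1.21 and 1.47, adjusted p = 0.00987 and 0.0138). Acvr1b was higher in the gastrocnemius of all 12 mice, by 0.57 to 2.2, and its effects did not differ between the muscles by a test (0.31 ± 0.41 and 0.16 ± 0.41).

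**Figure D4:**
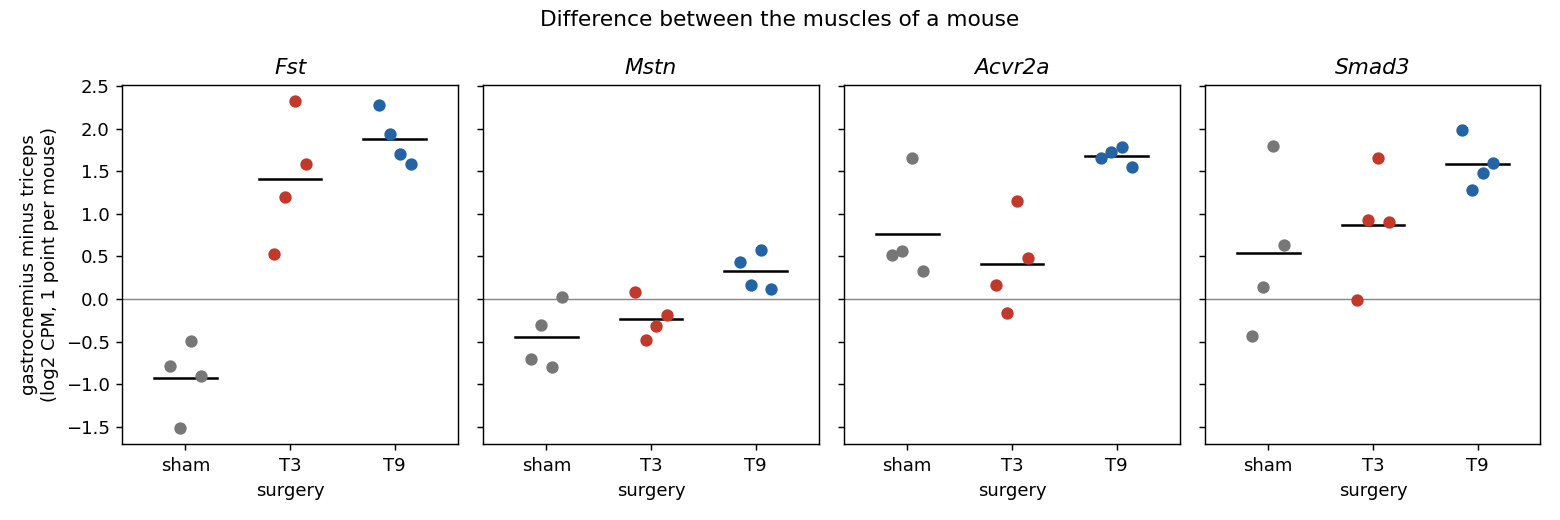
Gastrocnemius minus triceps (log2 CPM) in each of the 12 mice with both muscles, by surgery, for Fst, Mstn, Acvr2a and Smad3, with a bar for the mean of 4 mice. For Fst all 4 sham mice lie below 0 and all 8 injured mice above it. For Acvr2a the 4 T9 mice lie between 1.55 and 1.78, and the 4 sham mice between 0.33 and 1.65.

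Set against each other per kilobase of exon, the 8 genes differed in level. In sham gastrocnemius Mstn had 19.6, Smad3 13.2, Acvr1b 9.94, Fstl1 6.28, Acvr2a 3.92, Acvr2b 1.92, Smad7 1.11 and Fst 0.422 CPM per kilobase. After T9 Smad3 came first at 47.9, ahead of Mstn at 39.7. Acvr2a and Acvr2b, 3.92 and 1.92 in sham, were 11 and 1.73 after T9. Across the 6 groups the mean of Mstn went from 53.1 ± 13.6 CPM (SD, n = 4) in sham gastrocnemius through 62.6 ± 20.2, 74.7 ± 25, 75.3 ± 16.1 and 77.3 ± 17.8 to 107 ± 18.1 in gastrocnemius T9. Neighbours in that order below the last differed by less than their SD. Fst separated into the 4 groups at 1.93 to 2.73 CPM and the 2 injured gastrocnemius groups at 6.63 ± 1.66 and 9.09 ± 2.7. Smad3 was 63.5 to 117 CPM in 5 groups and 266 ± 26.3 in gastrocnemius T9, and Acvr2a 14.2 to 24.2 in 5 groups and 62.3 ± 9.08 there. Acvr1b was highest in gastrocnemius T3, at 117 ± 24.7 CPM.

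Other genes of the pathway were taken from 7 lists by role, with 64 genes of which 45 were in the table. Inhba, Inhbb, Fstl3 and Acvr1c were not analysed here. In the gastrocnemius 14 of the 45 rose and 3 fell after T3, which is 37.8% beside 33.7% of all genes. After T9, 21 rose and 2 fell, which is 51.1% beside 43.2% of all genes. These shares are near the background, with median changes of 0.51 and 0.65 beside 0.27 and 0.40 for all genes. Between T3 and T9 there, 3 were lower after T3 (6.67%, beside 1.63% of all genes). In the triceps 8 rose and 1 fell after T3, or 20.0% beside 23.3% of all genes, none passed after T9 (7 had an unadjusted p under 0.05), and 1 was higher and 2 were lower in T3 than in T9 (6.67%, beside 7.6%).

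Among the ligands, Gdf11, the closest relative of myostatin, fell by 0.88 ± 0.23 after T3 and rose by 0.70 ± 0.23 after T9 in the gastrocnemius (adjusted p = 0.012 and 0.027). Its libraries held 14.1, 21.2, 17.7 and 13.9 CPM in sham, 9.74, 5.69, 8.69 and 13.3 after T3, and 31.9, 27.6, 25.5 and 23.3 after T9, with no overlap between the 3 groups. Of all genes, 29.7% did not overlap between T3 and sham, 39.6% between T9 and sham, and 18.2% between T3 and T9. T3 was lower than T9 by 1.58 ± 0.23 (adjusted p = 0.0094). Tgfb2, a TGF-beta isoform, rose by 1.67 ± 0.21 after T9 (adjusted p = 0.00013), from 10.6 ± 2.54 to 32.9 ± 3.19 CPM (SD, n = 4), and was lower after T3 than after T9 by 1.25 ± 0.21 (adjusted p = 0.017). Tgfb3 rose after both injuries, by 0.61 and 1.11.

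Among the binding proteins, Ltbp3, which holds latent TGF-beta in the matrix, rose by 1.22 and 1.24 in the gastrocnemius, and Chrd, a BMP antagonist, by 1.24 and 1.49. Wfikkn2, which binds myostatin, did not pass against sham in either muscle (-0.10 and 0.35 for the gastrocnemius, -0.56 and -0.12 for the triceps). Furin, which cuts the propeptides of these ligands, rose by 0.90 after either injury in the gastrocnemius.

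The TGF-beta receptors rose beside Acvr1b. Tgfbr1, a type I receptor, rose by 1.29 ± 0.16 and 1.37 ± 0.16 after T3 and T9 in the gastrocnemius (adjusted p = 7.4e-05 and 6.8e-05) and by 0.64 ± 0.17 in the triceps after T3 (adjusted p = 0.012). Tgfbr2, its type II partner, rose by 1.36 and 1.23 in the gastrocnemius and by 1.21 in the triceps after T3. Tgfbr3, a co-receptor, rose by 0.99 and 1.27 in the gastrocnemius. Smad2, the partner of Smad3, did not pass in any comparison (0.24 and 0.50 in the gastrocnemius), and Smad4 rose by 0.45 ± 0.16 after T9 there (adjusted p = 0.04). Smad6, the other inhibitory Smad, rose by 1.31 ± 0.24 in the triceps after T3 (adjusted p = 0.001).

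Of the Smad regulators, Tgif1, a repressor that binds Smads, rose by 2.39 ± 0.22 and 2.70 ± 0.22 in the gastrocnemius (adjusted p = 1.1e-05 and 6.7e-06) and by 1.17 ± 0.29 in the triceps after T3 (adjusted p = 0.0079). Among the Smad target genes, Ccn2, induced by TGF-beta in many cells, fell by 1.01 ± 0.19 in the gastrocnemius after T9 (adjusted p = 0.0017). Id2 and Id3, induced by BMP signals, rose there by 1.98 ± 0.55 and 1.01 ± 0.20 (adjusted p = 0.012 and 0.0026). After T3 in the gastrocnemius Ccn2 also fell, and Id2 and Id3 also rose, past the threshold. Of 10 other settings of that comparison, Ccn2 passed in 10 (-1.004 to -0.646), Id2 in 9 (1.428 to 2.165) and Id3 in 5 (0.355 to 0.631). No Smad target gene passed between T3 and T9 in that muscle. Fbxo30, a ubiquitin ligase subunit linked to muscle loss after denervation, rose by 0.79 and 0.94 in the gastrocnemius and by 0.55 in the triceps after T3. Id1 rose by 0.59 in the gastrocnemius after T9 and by 1.09 in the triceps after T3.

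Several of these changes rested on scaling or on single libraries. With median centring the T9 changes of Gdf11 (0.30), Furin (0.50), Smad4 (0.05), Id1 (0.19) and Id2 (1.58) in the gastrocnemius did not pass, nor did the triceps T3 changes of Fbxo30 (0.32) and Id3 (0.54). With the library median as a covariate Furin and Smad4 turned below 0 after T9 (-0.26 and -0.066), and the T9 changes of Gdf11 (0.15), Tgfb2 (0.76), Tgfb3 (0.62), Chrd (0.84), Ltbp3 (0.18), Tgfbr2 (0.28), Tgfbr3 (0.39), Id1 (0.54), Id2 (1.72) and Id3 (0.65) did not pass. Nor did the gastrocnemius T3 changes of Tgfb3 (0.27), Chrd (0.78), Ltbp3 (0.49), Furin (0.11), Tgfbr2 (0.70) and Tgfbr3 (0.38), or the triceps T3 changes of Tgfbr1 (0.37) and Fbxo30 (0.40). The T9 rise of Gdf11 was lost without sham replicate 1 or 4 or T9 replicate 1 or 2 (0.62 to 0.69), and that of Id1 without sham replicate 2 or T9 replicate 1, 2 or 4 (0.44 to 0.62). The T9 rise of Smad4 was lost without sham replicate 1 or 4, T3 replicate 1 or any 1 of the T9 libraries (0.36 to 0.49). The difference of Tgfb2 between T3 and T9 was lost without T3 replicate 1 or 2 or T9 replicate 1, 3 or 4 (-1.32 to -1.13). The triceps rise of Fbxo30 was lost without sham replicate 3, 5 or 6 or T3 replicate 1, 2, 3 or 6 (0.44 to 0.56). Within the triceps libraries numbered 60, the T3 changes of Tgfbr1 (0.70) and Tgif1 (1.27) kept their sign and did not pass.

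**Figure D5:**
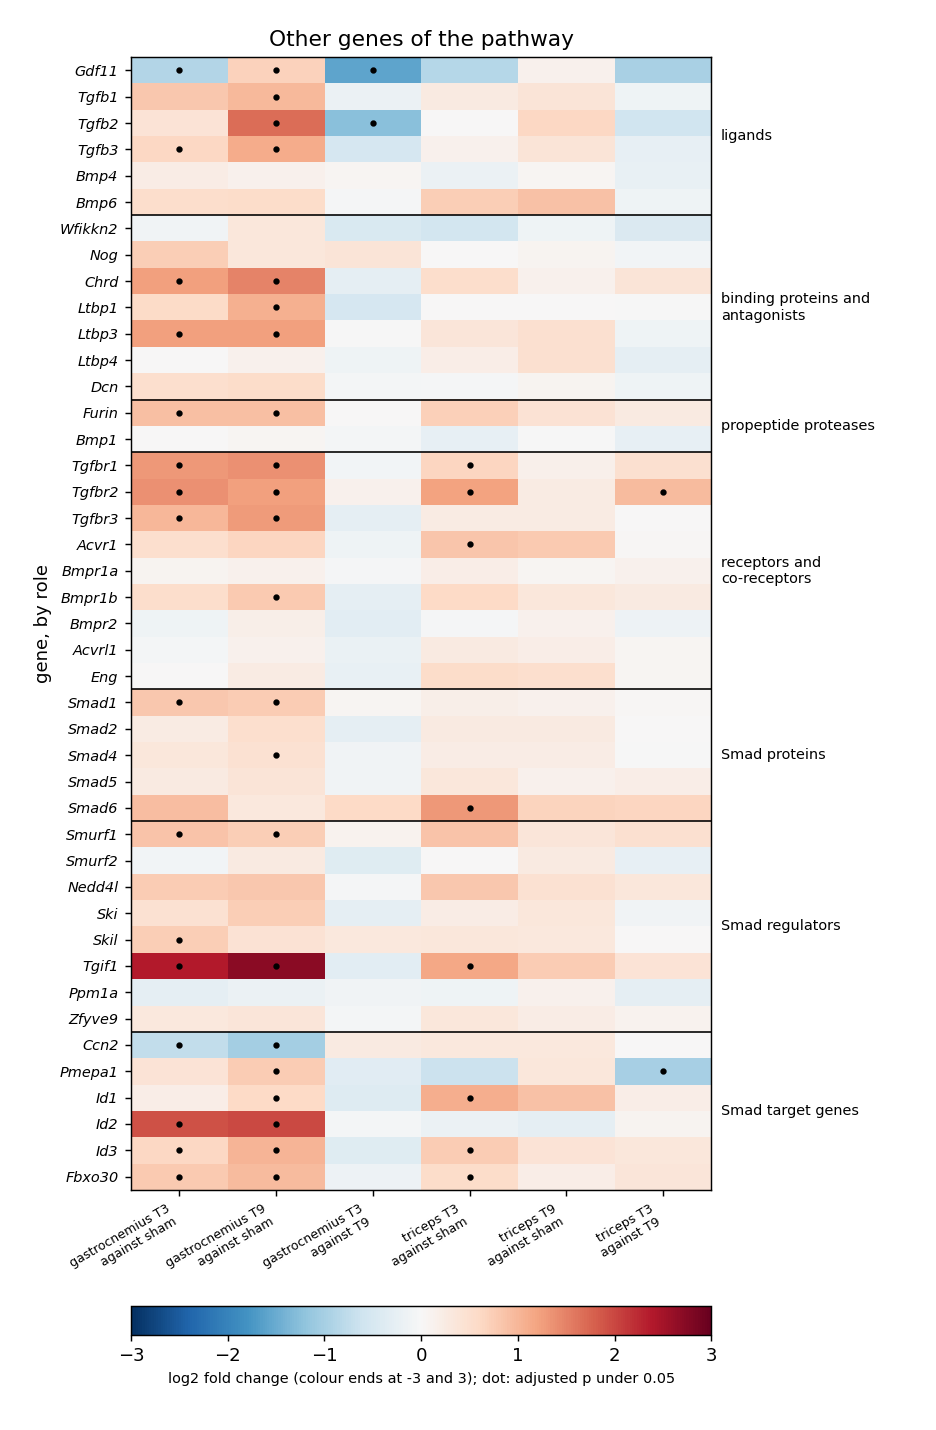
Log2 change of other pathway genes (rows, by role) in the 6 comparisons within a muscle (columns), red for higher and blue for lower in the first group named, with a dot where the limma threshold was passed. Tgif1 is the darkest red row, at 2.39 and 2.70 in the gastrocnemius, and Gdf11 is blue after T3 and red after T9 there.

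Across the 30 libraries, with each centred on its median, the genes most like each of the 8 were found by Pearson r, as a description over libraries that share depth and muscle. Genes with a Gm-number, Rik or -ps symbol, or with no symbol, were left out of the ranking. Mstn was most like Ddit4l (0.858), Bcl7c (0.833) and Gstp1 (0.812). Fst was most like Ywhab (0.828), Aida (0.804) and Ric8a (0.802), and Fstl1 like Fam114a1 (0.931), Vim (0.925) and Loxl2 (0.914). Acvr2a was closest to E2f2 (0.839), Samd8 (0.811) and Eya4 (0.804), and Acvr2b had the weakest neighbours, Amer1 (0.703), Plekha6 and Hipk3 (both 0.668). The genes nearest to Acvr1b were Gatad2b (0.893), Gab1 (0.876) and Trim11 (0.862), and those nearest to Smad3 were Ttll12 (0.9), Lman2l (0.892) and Zdhhc9 (0.877). Smad7 was most like Smad6 (0.828), ahead of Zfp839 (0.792) and Abhd4 (0.774). Among the 8 genes themselves the highest r was 0.73, for Acvr1b and Smad7, and it was 0.66 within groups. Acvr2a and Smad3 had 0.64, and 0.22 within groups, while Mstn and Fst had 0.55, and 0.67 within groups. Other pairs went in opposite directions. The lowest r was -0.58, for Fstl1 and Smad7, and it was -0.22 within groups. Within groups the lowest was -0.76, for Fstl1 and Smad3 (-0.47 over all libraries). Smad3 also had -0.66 with Fst and -0.55 with Mstn within groups, beside 0.15 and -0.17 over all libraries.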

How the data were processed

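The authors deposited 1 table of log2 values for 30 libraries. Per the submitters' processing notes, HISAT2 2.1.0, featureCounts, Subread 1.5.1, limma and the GRCm38 build were used. The sources used here do not give the annotation release, the strand setting or the filter. Values in the deposited table are log2 CPM, offset by 0.5 reads. Whole reads were recovered for 100% of values within 0.01 reads, which alone would not show a scaling factor per library. Scaled to library totals, the recovered reads follow the deposited values. Mstn had 36.6 CPM at a log2 value of 5.2 in gastrocnemius sham replicate 1, and 25.6 at 4.68 in triceps T3 replicate 5. CPM, reads and depths come from the recovered reads. Exon lengths and locations are from GENCODE (GRCm38), and promoters from RefSeq.

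A count test was planned only for the case that the table held counts, and it was not used because log2 values were deposited. Genes that reached a log2 value of 0 in 4 or more libraries were fitted with limma 3.58.1 in R 4.3.3 (empirical Bayes with trend, two-sided), tested on simulated data first. The 12 gastrocnemius libraries were fitted together, as were the 18 triceps libraries, there with the unexplained number 57 or 60 of the description as a covariate. The muscles were compared over 24 libraries with mouse as a block. Libraries of 1 mouse deviated together (r above 0.1) in 11 of 12 mice, sham mouse 4 being the exception (-0.753). In mice 1, 4, 5 and 10, another mouse of the same surgery gave a triceps library closer to the gastrocnemius library. Its r was 0.514 against 0.507 in mouse 1, 0.328 against -0.753 in mouse 4, 0.862 against 0.728 in mouse 5 and 0.252 against 0.133 in mouse 10. The pairing thus remains an inference. Replicate pairs differed beyond counting noise (chi-square per degree of freedom 9.78 to 621). P-values set each difference of means against the spread between these samples, as limma moderates it over genes. In the comparisons between muscles they also rest on the inferred pairing. The members and lists were chosen with earlier results of these data known. Named genes are the 8 members, 12 other listed genes where present, up to 4 per pathway list by smallest adjusted p, the 3 most similar genes and cell type markers. Of the listed genes, 2 are counted but not reported here by name.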

Additional observations from a re-analysis of the deposited data

Results flagged for a closer look

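Over 48 combinations of gene and group, 2 held a library far from the rest of its group, where chance marks about 1 in 20. Mstn was 25.6 CPM in triceps T3 replicate 5, and the other 5 libraries of that group held 75 to 90.7. That library has 88826845 reads, and its part in the value was not tested. Acvr1b was 75.5 CPM in gastrocnemius sham replicate 3, and the other 3 held 33.1 to 33.6.

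Effects of surgery differed between the muscles for 2 genes by the test of the difference. For Fst the T3 effect was larger in the gastrocnemius by 2.32 (adjusted p = 0.0078, limma) and the T9 effect by 2.79 (adjusted p = 0.00095), with the gastrocnemius lower in 4 of 4 sham mice and higher in 8 of 8 injured mice. For Mstn the T9 effect was larger in the gastrocnemius by 0.77 (adjusted p = 0.044), with the gastrocnemius higher in 4 of 4 T9 mice and in 1 of 4 sham mice. Over all alternatives, fits without 1 mouse included, the Mstn call held in 6 and was lost in 14.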

How the results depend on the processing

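The rises of Fst, the fall of Fstl1 after T3 and the rise of Acvr1b after T3 in the gastrocnemius, and the differences of the T3 and T9 effects on Fst between the muscles, kept their direction and stayed past the threshold under every alternative run for them. With the library median as a covariate, which shares variation with surgery, the T9 changes of Acvr2a (0.55), Smad3 (0.80) and Fstl1 (-0.33) did not pass. Under it the T3 change of Smad7 (0.18) did not pass either, and signs turned after T3 in the gastrocnemius for Smad3 (-0.051), Ltbp4 (-1.08) and Eng (-0.92), and after T9 for Smad7 (-0.67) and Acvr1b (-0.045), which had not passed, and for Tgfb1 (-0.43), Bmp6 (-1.19), Ltbp1 (-0.06), Ltbp4 (-1.45), Furin (-0.26), Eng (-1.11), Smad1 (-0.39), Smad4 (-0.066), Smurf1 (-0.35) and Pmepa1 (-0.31). In the triceps after T3 they turned for Ltbp4 (-0.73), Smurf2 (-0.46) and Ski (-0.65), and Acvr1 turned (-0.055) within the number 57, an alternative chosen after seeing the data. The cause was not tested.

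Counts of genes past the threshold, with those of the 8 members where they moved, were as follows. In gastrocnemius T3 against sham (3794 genes, 5 members) the median covariate gave 2079 and 3, and fitting only the groups compared gave 2357 and 3. In T9 against sham (4864, 5) median centring gave 2644, quantile normalization 2718, and the median covariate 1388 and 2. In T3 against T9 (183, 2) leaving out the 4 libraries with the lowest medians gave 563, the replicate block 70, the median covariate 423 and 4, and only the groups compared 1059 and 4. In triceps T3 against sham (2624, 3) the replicate block gave 1 member, no number term 1, the number 60 alone 1247 and 0, and the number 57 alone 684 and 1. In triceps T9 against sham (1 gene) median centring, quantile normalization and only the groups compared gave 2, voom weights, the replicate block and the number 57 alone 0, and the median covariate 15. In triceps T3 against T9 (855, 0) the median covariate gave 2212 and 1, the number 60 alone 50, the number 57 alone 314 and 1, and both only the groups compared and the lowest medians left out gave 2 members.

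Between muscles in sham (4374, 4) the lowest medians left out gave 9 and 0, and no mouse block 95 and 0. For the T3 effect (140 genes) median centring gave 248, quantile normalization 316, the lowest medians left out 39 and no mouse block 75. For the T9 effect (782, 2) the lowest medians left out gave 314, and no mouse block 447 and 1. Replicate numbers within a muscle did not pair the libraries throughout. The lowest r was -0.287 for gastrocnemius number 1 and -0.627 for triceps number 3. Triceps numbers 4 and 6 did go together, at 0.536 to 0.597 and 0.503 to 0.837. The replicate block is thus only an alternative, and it changed no gastrocnemius member call except that of Acvr1b after T9.

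Leaving out 1 library or mouse at a time gave 2661 to 4765 genes and 3 to 5 members for gastrocnemius T3, 3384 to 5589 and 5 to 7 for T9, and 11 to 563 and 0 to 3 for T3 against T9. In the triceps it gave 1865 to 3122 and 1 to 3 for T3, 0 to 7 and 0 for T9, and 539 to 1066 and 0 to 1 for T3 against T9. Between muscles it gave 96 to 4650 and 0 to 5 in sham, 54 to 183 and 1 for the T3 effect, and 353 to 1488 and 1 to 3 for the T9 effect. Depth limits Fst and Smad7 most, at 12 and 44 reads in their lowest libraries.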
